A study of Homo sapiens with 16 samples.

Results

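The comparison described here is between 2 edited Jurkat lines in how they responded to PMA: the change with PMA in the line titled H7iE9 (iE9 below) minus the change with PMA in the line titled H7dE9 (dE9 below). It uses 12 of the 16 libraries of the series, 3 for each line and treatment, and same-numbered libraries of a line form a pair, which gives 3 pairs for each line. The cells are JSL1, a clone of Jurkat, an established line grown from a human T cell leukemia. The 4 groups are iE9 with PMA, iE9 unstimulated, dE9 with PMA and dE9 unstimulated. Treated cells received phorbol 12-myristate 13-acetate (PMA) at 20 ng/mL for 48 h, and unstimulated cells were kept in growth medium for the same time according to their labels. The study's design text gives 0 h and 48 h instead, and if unstimulated cells were taken at 0 h, each response also holds the time in culture. The lines were made with CRISPR-Cas9 so that the endogenous HDAC7 gene gives protein with the exon 9 peptide (iE9, labelled as a knock-in) or without it (dE9, labelled as a knock-out). The remaining 4 libraries are of wild-type JSL1 cells (WT), 2 with PMA and 2 unstimulated, and take no part in the difference. Whether the libraries of a line came from 1 clone or several, and whether a number marks a separate culture, is not given in the labels, so p-values measure only the spread between these libraries.

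HDAC7, a histone deacetylase of class IIa, is abundant in immature T cells. It represses genes bound by MEF2 transcription factors, and its activity is controlled by where in the cell it lies: when it is phosphorylated it is held by 14-3-3 proteins and leaves the nucleus. PMA mimics diacylglycerol. It activates protein kinase C and through it the Ras and MAP kinase pathway and NF-kB, and so gives part of the signal of the T cell receptor.

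HDAC7 itself was read first. Its level was 409, 325 and 322 counts per 1e6 (CPM) in iE9 with PMA and 204, 129 and 172 CPM in unstimulated iE9, against 158, 155 and 252 CPM in dE9 with PMA and 46.9, 59.1 and 53.5 CPM in unstimulated dE9. HDAC7 was thus higher in the iE9 libraries in both states. It rose with PMA 2.11-fold in iE9 and 3.47-fold in dE9, a difference of responses of -0.71 ± 0.23 on the log2 scale (SE, 3 pairs per line), which did not pass the test (adjusted p = 0.259, edgeR quasi-likelihood). Exon 9 of HDAC7 lies on the minus strand of chromosome 12, at chr12:47795906-47796016 in GRCh38. It is the exon in place 9 of 3 annotated transcripts that other transcripts splice over. Its sequence is shown because it is the segment that the lines were made to differ in.
HDAC7 exon 9: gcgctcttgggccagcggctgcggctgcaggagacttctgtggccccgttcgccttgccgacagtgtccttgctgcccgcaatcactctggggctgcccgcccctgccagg

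The share of exon 9 was taken as the TPM of the 5 annotated transcripts that hold the exon over the TPM of those 5 and the 5 that span its position without it. The share was 42.31%, 63.0% and 44.27% in iE9 with PMA and 58.27%, 51.78% and 74.85% in unstimulated iE9. It was 0%, 0.68% and 0% in dE9 with PMA and 2.14%, 0.84% and 7.37% in unstimulated dE9. The iE9 and dE9 libraries were therefore far apart. WT was at 43.08% and 53.76% with PMA and at 46.6% and 47.49% unstimulated. With PMA the iE9 libraries overlapped those of WT, and unstimulated iE9 libraries all lay above the unstimulated WT libraries. The share did not show full inclusion in the libraries labelled iE9, and the names iE9 and dE9 are used below as labels. HDAC7 transcripts that neither hold nor span the exon do not enter the share. They held 134.1 of 210.48 TPM in iE9 PMA library 1 and 32.66 of 60.97 TPM in unstimulated iE9 library 2. The split among transcripts is also an estimate of the quantifier, so the share cannot settle how complete inclusion was. The change of the share with PMA was -11.77 percentage points in iE9 and -3.23 points in dE9. The difference of -8.55 points was within the spread of the pairs (two-sided exact permutation test, p = 0.6; 3 pairs against 3 cannot go below 0.1), and it turned to 0.86 points without iE9 pair 3.

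Libraries held between 14536537 and 21888896 estimated counts. On the first principal component of log2 CPM, which held 46.1% of the variance and separated PMA from unstimulated libraries, PMA library 1 of dE9 lay at 17.6, short of the other dE9 libraries with PMA at 67.4 and 82.6. Unstimulated iE9 libraries lay at -31.3, -59.9 and -52.8, nearer to the PMA side than unstimulated dE9 libraries at -90.1, -80 and -89.4. Mitochondrially encoded genes took 12.81% of counts in the PMA library and 9.17% in the unstimulated library of iE9 pair 1, and at most 6.39% elsewhere. The median SD of a gene's response over the 3 pairs was 0.242 log2 units in iE9 and 0.38 in dE9. Because dE9 pair 1 stands apart, counts of calls and the adjusted p of several genes are also given without it. It was singled out by its smaller PMA response, so such values show how results depend on that pair and add no separate support. Pair 1 of iE9 stood apart in its mitochondrial share. Of the 8 genes called with all pairs (below), 0 passed without it (edgeR).

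Both lines answered PMA broadly. With a Benjamini-Hochberg adjusted p under 0.05 over 16915 genes in edgeR's quasi-likelihood test, 3205 genes rose (18.9%) and 3541 fell (20.9%) in iE9, and 3862 rose (22.8%) and 3883 fell (23%) in dE9. The same direction passed in both lines for 5283 genes and opposite directions passed for 26. The difference between the responses passed for 8 genes, or 0.0473% of those tested: 2 had a higher response in iE9 (0.0118%) and 6 a lower one (0.0355%). A gene with a higher response rose more or fell less with PMA in iE9 than in dE9. At an adjusted p under 0.1 there were 92 genes (0.544%), 29 higher (0.171%) and 63 lower (0.372%), and an unadjusted p under 0.05 was reached by 993 genes that were higher (5.87%) and 1294 that were lower (7.65%). The counts moved widely with the method: DESeq2 called 229 genes higher and 211 lower, and leaving out the filter on low counts gave 395 and 299, all 8 among them in both. Of the 8, 0 passed with a transcript length offset (adjusted p from 0.0504 to 0.0921) and 3 passed without dE9 pair 2. Also, 0 genes passed when the pairs were ignored, where 417 genes were higher and 532 lower at an unadjusted p under 0.05, and 0 passed without any 1 of the 3 iE9 pairs, where 581 to 767 were higher and 721 to 912 lower at that p. The 3 pairs of iE9 did not overlap the 3 of dE9 for 20.6% of genes, 8.23% with iE9 higher and 12.4% with iE9 lower. Without dE9 pair 1 the test called 686 genes higher (3.94%) and 369 lower (2.12%), among them all 8.

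Among the 6 genes with a lower response in iE9, 3 are known for defence against viruses or for immune recognition, and these rose in both lines. GBP5, an interferon-inducible GTPase of the guanylate-binding protein family (chr1:89258950-89272804, minus strand), was at 231, 187 and 234 CPM in iE9 with PMA and 38.5, 35.8 and 40.7 CPM in unstimulated iE9. In dE9 it was at 154, 119 and 59.2 CPM with PMA and 4.14, 1.96 and 1.86 CPM unstimulated. All 3 unstimulated iE9 libraries lay above all 3 unstimulated dE9 libraries, and the same held with PMA by a smaller margin. GBP5 rose 5.65-fold in iE9 and 41.7-fold in dE9, a difference of -2.88 ± 0.23 on the log2 scale (SE, adjusted p = 0.0259, edgeR).

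APOBEC3G, a cytidine deaminase that restricts retroviruses (chr22:39077005-39087743, plus strand), was at 31.0, 10.9 and 20.9 CPM in iE9 with PMA and 7.45, 3.67 and 6.55 CPM in unstimulated iE9. It was at 59.7, 37.3 and 10.7 CPM in dE9 with PMA and 1.48, 1.64 and 0.396 CPM in unstimulated dE9. The unstimulated libraries did not overlap, with iE9 higher, while the libraries with PMA overlapped. Its rise was 3.42-fold in iE9 and 29.1-fold in dE9 (difference -3.09 ± 0.29, adjusted p = 0.0425, edgeR).

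SLAMF7, a receptor of the SLAM family found on natural killer and plasma cells (chr1:160739057-160754821, plus strand), was at 36.4, 4.38 and 7.07 CPM in iE9 with PMA and 18.9, 2.25 and 2.93 CPM in unstimulated iE9. It was at 11.4, 4.97 and 1.59 CPM in dE9 with PMA and at 0.741, 0.187 and 0.0565 CPM, or 12, 4 and 1 counts, in unstimulated dE9. Levels varied widely between pairs, yet each iE9 pair changed by 0.93 to 1.24 on the log2 scale and each dE9 pair by 3.35 to 4.1. The fitted difference was -3.23 ± 0.37 (adjusted p = 0.0489, edgeR), and it depends on the few counts of unstimulated dE9.

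The other 3 genes with a lower response have different roles. MVP, the major vault protein (chr16:29820394-29848039, plus strand), was at 32.0, 27.3 and 33.4 CPM in iE9 with PMA and 24.4, 19.3 and 21.5 CPM in unstimulated iE9, against 68.3, 61.4 and 31.7 CPM in dE9 with PMA and 11.1, 9.54 and 7.57 CPM in unstimulated dE9. It started higher in iE9 and rose 1.42-fold there and 5.52-fold in dE9 (difference -1.96 ± 0.21, adjusted p = 0.0489). COTL1, coactosin-like protein, which binds filamentous actin (chr16:84565594-84618077, minus strand), was at 88.0, 226 and 221 CPM in iE9 with PMA and 296, 599 and 717 CPM in unstimulated iE9, against 410, 145 and 155 CPM in dE9 with PMA and 363, 171 and 148 CPM in unstimulated dE9. COTL1 fell to 0.326 of its unstimulated level in iE9, and its fitted change in dE9 was 0.00 ± 0.12 (difference -1.62 ± 0.17, adjusted p = 0.0489). ARPP21, a cAMP-regulated phosphoprotein that binds RNA (chr3:35638945-35794496, plus strand), was at 5.16, 6.47 and 6.58 CPM in iE9 with PMA and 63.4, 98.2 and 80.5 CPM in unstimulated iE9, against 40.0, 33.5 and 23.8 CPM in dE9 with PMA and 161, 158 and 118 CPM in unstimulated dE9. It was lower in iE9 in both states and fell further there, to 0.076 of its unstimulated level against 0.22 in dE9 (difference -1.53 ± 0.17, adjusted p = 0.0489, all by edgeR).

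The 2 genes with a higher response in iE9 fell in dE9. RASL10B, a small GTPase related to Ras (chr17:35731649-35743521, plus strand), was at 12.8, 17.3 and 13.0 CPM in iE9 with PMA and 15.1, 25.8 and 18.8 CPM in unstimulated iE9, against 7.51, 4.88 and 10.5 CPM in dE9 with PMA and 42.8, 41.3 and 52.0 CPM in unstimulated dE9. It fell to 0.162 of its unstimulated level in dE9, and its change in iE9 did not pass (-0.45 ± 0.17, adjusted p = 0.0687). The difference was 2.17 ± 0.25 (adjusted p = 0.0489). MCUB, a subunit that limits calcium flow through the mitochondrial calcium uniporter (chr4:109560205-109688726, plus strand), was at 81.4, 118 and 113 CPM in iE9 with PMA and 59.4, 86.2 and 89.5 CPM in unstimulated iE9, against 39.4, 47.7 and 50.1 CPM in dE9 with PMA and 71.4, 80.8 and 81.1 CPM in unstimulated dE9. The unstimulated libraries overlapped, and with PMA every iE9 library lay above every dE9 library. MCUB rose 1.33-fold in iE9 (adjusted p = 0.0107) and fell to 0.586 of its unstimulated level in dE9 (adjusted p = 0.000564), and it is the 1 called gene of 26 whose response passed in opposite directions (difference 1.19 ± 0.14, adjusted p = 0.0489, edgeR).

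**Figure D1:**
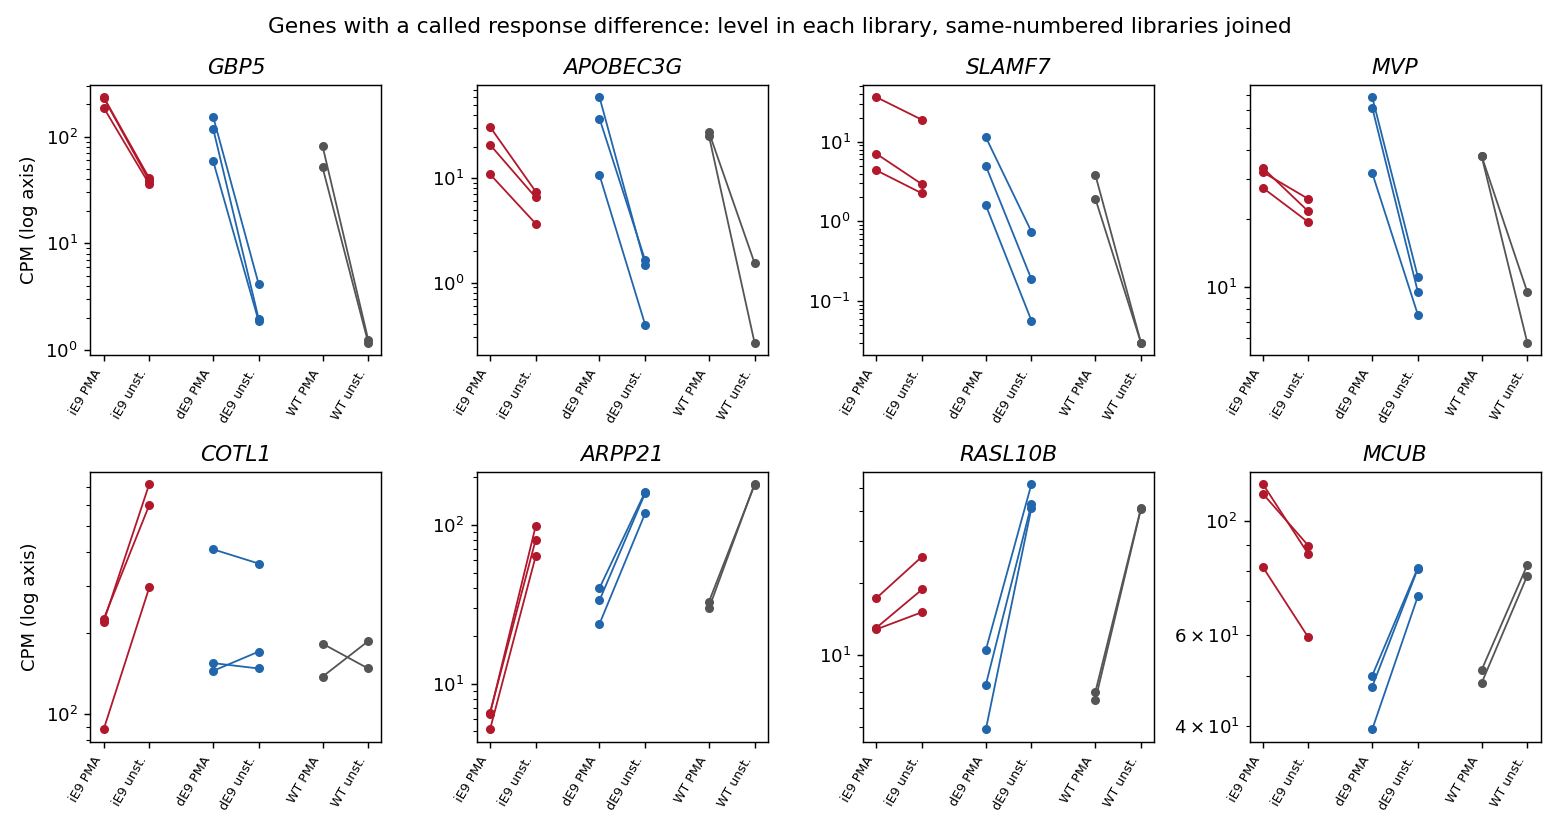
Level of each of the 8 called genes in every library, in CPM on a log axis, for iE9 (red), dE9 (blue) and WT (grey), with PMA and unstimulated libraries of the same number joined. In unstimulated libraries GBP5, APOBEC3G, SLAMF7 and MVP are higher in all 3 of iE9 than in all 3 of dE9; SLAMF7 had 0 counts in both unstimulated WT libraries, drawn at the foot of the axis.

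The unstimulated state differed more than the PMA state for several of these genes. On mean log2 CPM, iE9 minus dE9 was 1.07 with PMA and 3.89 unstimulated for GBP5, -0.58 and 2.36 for APOBEC3G, -0.73 and 1.21 for MVP, and -0.36 and 1.26 for COTL1. For MCUB it was 1.17 with PMA and -0.01 unstimulated, and for ARPP21 -2.37 and -0.86. Over the 63 genes that were lower at an adjusted p under 0.1, the median of iE9 minus dE9 was -0.58 with PMA and 0.86 unstimulated, and 53 of 63 were higher in unstimulated iE9. Over the 29 higher genes the medians were 0.87 with PMA and -0.38 unstimulated. These values are parts of the difference that chose the genes and are given as a description.

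Genes chosen to fill the list of higher responses to 5 did not pass with all pairs and passed without dE9 pair 1 (adjusted p from 0.0039 to 0.00789, edgeR). IRS1, an adaptor of the insulin receptor, had a difference of 1.69 ± 0.22 (adjusted p = 0.0531). EPB41L2, a cytoskeletal protein of the band 4.1 family, was at 69.5, 117 and 98.5 CPM in iE9 with PMA and 70.0, 90.1 and 88.6 CPM in unstimulated iE9, against 44.5, 42.2 and 32.7 CPM in dE9 with PMA and 91.7, 81.3 and 88.7 CPM in unstimulated dE9 (1.31 ± 0.19, adjusted p = 0.068). SFMBT2, a Polycomb-group protein, was at 183, 136 and 136 CPM in iE9 with PMA and 41.9, 30.5 and 33.1 CPM in unstimulated iE9, against 53, 81.2 and 52.9 CPM in dE9 with PMA and 29.7, 35.6 and 34.6 CPM in unstimulated dE9 (1.22 ± 0.18, adjusted p = 0.0731, all by edgeR). EPB41L2 and SFMBT2 overlapped between the lines when unstimulated and did not overlap with PMA.

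Relatives of the called genes were read beside them, chosen by name after the calls were known. All 6 tested GBP genes had a negative difference, between -3.28 and -0.22, and 2 of them had an unadjusted p under 0.05. Over all genes tested 53.8% had a negative difference, 7.65% at that p. GBP2 was at 122, 109 and 135 CPM in iE9 with PMA and 5.55, 6.34 and 2.37 CPM in unstimulated iE9, against 313, 399 and 204 CPM in dE9 with PMA and 3.89, 3.13 and 3.45 CPM in unstimulated dE9, so that for this gene the lines differed with PMA (-1.70 ± 0.45, adjusted p = 0.201). Of 6 tested APOBEC3 genes 5 had a negative difference, and only APOBEC3G had an unadjusted p under 0.05. Of 7 tested SLAM genes 5 had a negative difference, and values ran from -3.23 for SLAMF7 to 3.76 for SLAMF8. CD48, the ligand of CD244, was at 168, 101 and 108 CPM in iE9 with PMA and 36.5, 16.7 and 18.4 CPM in unstimulated iE9, against 44.6, 168 and 88.9 CPM in dE9 with PMA and 2.53, 7.67 and 2.43 CPM in unstimulated dE9 (-2.14 ± 0.26, adjusted p = 0.0531, edgeR). Members of these families share sequence, and the division of reads among them by the quantifier makes single values uncertain to that extent.

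The WT libraries had no part in the calls and were set beside them. SLAMF7 had 0 counts in unstimulated WT and is left out here. For each of the other 7 called genes the WT response was nearer to that of dE9 than to that of iE9. The same held for 62.9% of all genes tested and for 81.5% of those at an unadjusted p under 0.05 (edgeR). The WT pairs changed by 5.89 and 5.32 on the log2 scale for GBP5, 6.08 and 4.07 for APOBEC3G, 2.69 and 1.97 for MVP, 0.30 and -0.44 for COTL1, -2.44 and -2.60 for ARPP21, -2.54 and -2.64 for RASL10B, and -0.69 and -0.67 for MCUB. Each lay outside the range of the iE9 pairs, and all but those of APOBEC3G lay within or close to that of the dE9 pairs. For APOBEC3G the WT pairs lay above and below the dE9 range of 4.42 to 5.23. They rest on 4 and 26 counts in unstimulated WT. At an adjusted p under 0.1 WT was nearer to dE9 for 87 of 92 genes (94.6%), counting SLAMF7. This pattern depended on dE9 pair 1 for genes with a higher response: among those called without that pair, and tested in both fits, WT was nearer to dE9 for 248 of 684 higher genes (36.3%) and for 259 of 369 lower ones (70.2%), against 52.9% of all genes. Over all 16915 genes the responses of iE9 and WT had a Pearson r of 0.71 and those of dE9 and WT one of 0.82, a description across genes, which are not independent replicates.

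**Figure D2:**
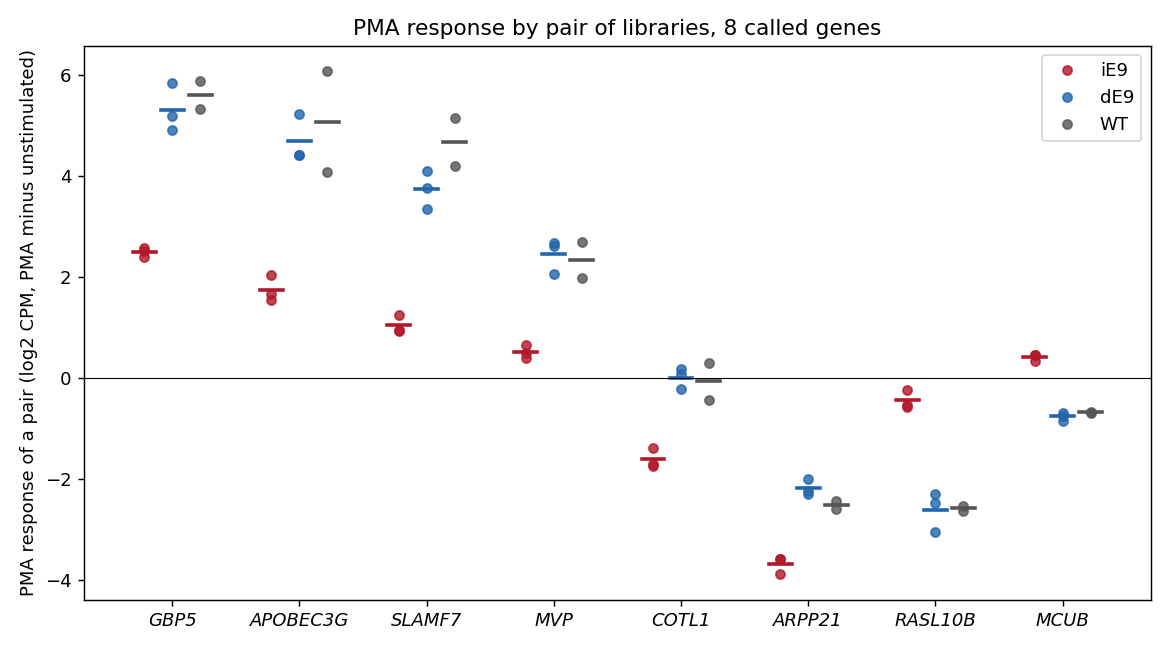
Response to PMA of each pair of same-numbered libraries, in log2 CPM with PMA minus log2 CPM unstimulated, for the 8 called genes; points are pairs and bars are means, with iE9 in red, dE9 in blue and WT in grey. The 3 iE9 pairs lie apart from the 3 dE9 pairs for each gene, which the rule for naming them required, and the WT pairs lie nearer to dE9; the WT points of SLAMF7 rest on 0 unstimulated counts and show no measured response.

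A broader set of genes was chosen by an adjusted p under 0.05 for the PMA response in WT (edgeR): 1954 genes that rose there (11.6%) and 2016 that fell (11.9%). The contrast was that of the WT libraries. The fit held all 16 libraries, so its estimate of spread drew on iE9 and dE9 too, and only the 16915 genes tested above were considered. The median response of the risen genes was 1.10, 1.19 and 1.12 log2 units in the iE9 pairs and 1.18, 1.44 and 1.62 in the dE9 pairs, so every iE9 pair except pair 2 lay below every dE9 pair. The median difference was -0.28 against -0.04 over all genes tested. Of the risen genes 72.4% had a lower response in iE9, 409 of them at an unadjusted p under 0.05, against 60 that were higher. Over all genes 53.8% had a lower response, and 7.65% were lower and 5.87% higher at that p. The fallen genes gave medians of -1.0, -0.97 and -0.98 in the iE9 pairs and -0.94, -1.22 and -1.43 in the dE9 pairs, with a median difference of 0.19, and 382 of them were higher in iE9 at that p, against 50 that were lower. In both directions the iE9 medians were smaller in size than those of dE9 pairs 2 and 3, and dE9 pair 1 was near the iE9 pairs.

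The levels show where this lay. For genes risen in WT the median of log2(CPM + 1) was 5.2, 5.12 and 5.19 in iE9 with PMA and 4.04, 3.87 and 4.03 in unstimulated iE9, against 4.9, 5.19 and 5.2 in dE9 with PMA and 3.65, 3.65 and 3.52 in unstimulated dE9. The libraries with PMA overlapped between the lines, whereas every unstimulated iE9 library was above every unstimulated dE9 library, and 77.4% of these genes were higher in unstimulated iE9, against 8460 of all 16915 genes. For genes fallen in WT it was 4.84, 5.04 and 4.98 in iE9 with PMA and 5.76, 5.95 and 5.89 in unstimulated iE9, against 5.2, 4.77 and 4.66 in dE9 with PMA and 6.1, 6.03 and 6.12 in unstimulated dE9. Here too the unstimulated libraries did not overlap, with iE9 lower, and 17.4% of the genes were higher in unstimulated iE9.

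**Figure D3:**
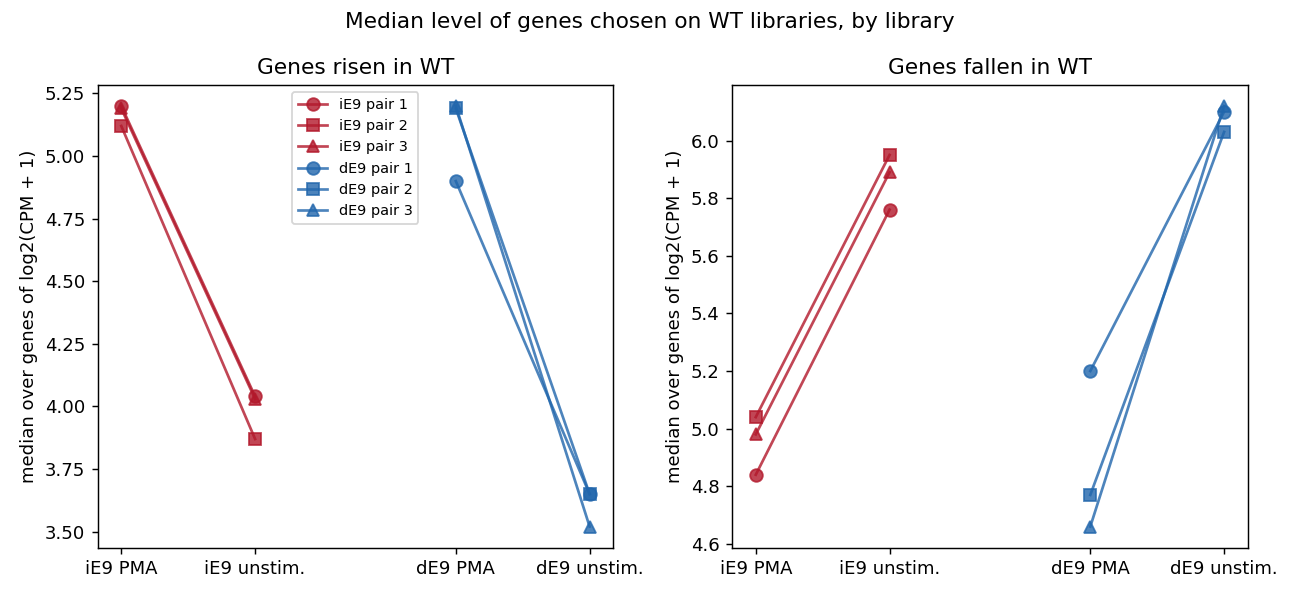
Median level, as log2(CPM + 1), of the 1954 genes that rose and the 2016 that fell with PMA in WT, in each iE9 (red) and dE9 (blue) library, with the libraries of a pair joined. Unstimulated iE9 libraries lie above unstimulated dE9 libraries for risen genes (3.87 to 4.04 against 3.52 to 3.65) and below them for fallen genes, while the libraries with PMA overlap.

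Genes of the cell cycle had differences of the other sign. Of 26 genes on this list, all tested, 0 passed the test with all pairs by edgeR, 6 by DESeq2 and 0 by limma voom, 18 had a higher response at an unadjusted p under 0.05 and 26 of 26 had a positive difference, with a median of 1.72. Over all genes 5.87% were higher at that p and 46.2% had a positive difference. The median response was -1.25, -0.91 and -1.15 in the iE9 pairs and -1.09, -3.22 and -4.08 in the dE9 pairs, against -2.04 and -1.92 in the WT pairs. Pair 1 of dE9 thus lay among the iE9 pairs, and the other dE9 pairs fell further than WT. Without dE9 pair 1 all 26 passed the test, against 3.94% of all genes, and the median difference was 2.66. This follows in part from leaving out the dE9 pair with the smallest fall. In the fit of all pairs 10 of the 26 fell in iE9 and 26 fell in dE9 (adjusted p under 0.05, edgeR; 20.9% and 23% of all genes), and for 26 of 26 the WT response lay between those of the lines.

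The list covers several steps of the cycle. CCNA2, the cyclin of S phase and G2, was at 44.9, 82.7 and 67.9 CPM in iE9 with PMA and 106, 168 and 156 CPM in unstimulated iE9, against 62.5, 14.3 and 7.59 CPM in dE9 with PMA and 176, 191 and 167 CPM in unstimulated dE9 (2.07 ± 0.66, adjusted p = 0.253). MKI67, which encodes the Ki-67 proliferation marker, was at 423, 434 and 329 CPM in iE9 with PMA and 1120, 578 and 712 CPM in unstimulated iE9, against 327, 73.5 and 28.7 CPM in dE9 with PMA and 743, 808 and 676 CPM in unstimulated dE9 (2.11 ± 0.77, adjusted p = 0.299). CDK2, the kinase partner of cyclins E and A, had the smallest p of the list and was at 120, 119 and 115 CPM in iE9 with PMA and 108, 130 and 135 CPM in unstimulated iE9, against 94.2, 41.2 and 38.7 CPM in dE9 with PMA and 140, 114 and 140 CPM in unstimulated dE9 (1.24 ± 0.31, adjusted p = 0.183, all by edgeR). With PMA, dE9 library 1 was within the range of iE9 for CCNA2, just below it for MKI67 and below it for CDK2, and dE9 libraries 2 and 3 were below every iE9 library for all 3 genes.

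**Figure D4:**
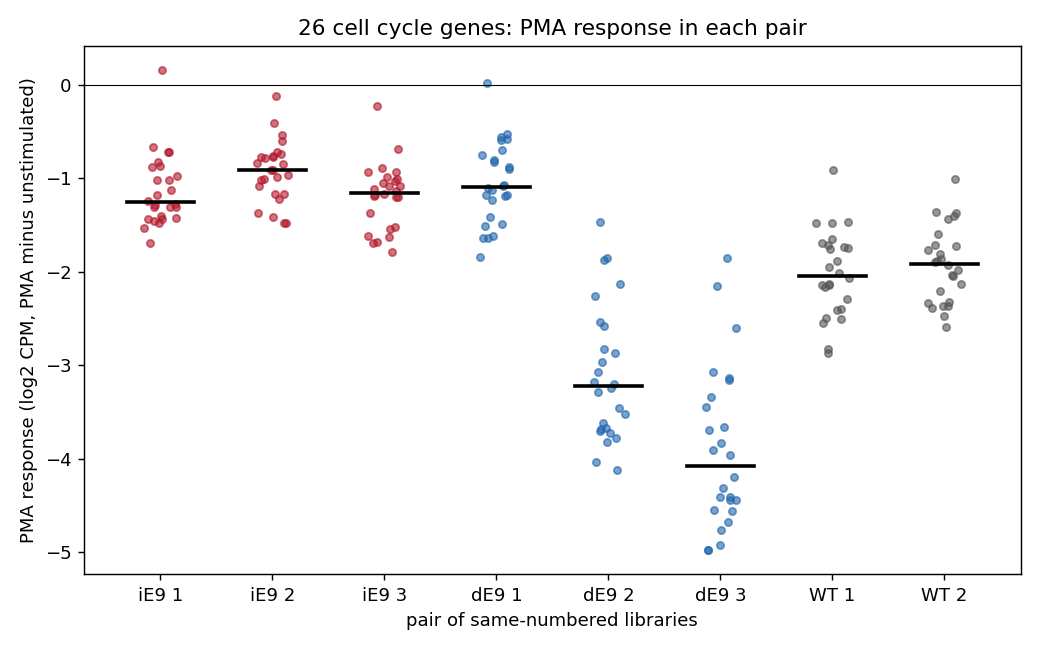
Response to PMA of the 26 cell cycle genes in each pair of libraries, in log2 CPM with PMA minus unstimulated; each point is a gene and each bar the median, for iE9 (red), dE9 (blue) and WT (grey). The medians are -1.25, -0.91 and -1.15 in iE9, -1.09, -3.22 and -4.08 in dE9 and -2.04 and -1.92 in WT.

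Promoters of 21 of the 26 cell cycle genes and of 4 of the 8 called genes were found in RefSeq (GRCh38.p14), each as 250 bases before to 50 after a transcript start, and were searched on both strands. E2F factors drive genes of DNA replication, and the letters TTTGGCGC, a form of their motif, were present in 4 of 26 cell cycle promoters (15.4%), those of MCM6, CDC25A, CDC6 and E2F1, against 0.652% of 35116 promoters. The letters TTTGAA, the cell cycle homology region of genes used in G2 and mitosis, were present in 8 of 26 (30.8%), against 15.2% of all. No match of either overlapped a match of the other. The 26 promoters belong to 21 genes, and 2 of the 8 with TTTGAA are of CDK1. TTTGAA was also present in 3 of the 14 promoters of called genes (21.4%), all of ARPP21. Of the 14 promoters of called genes, 1 of MVP held the letters GAAA, any 2 bases and GAAA again, a form of the interferon-stimulated response element (3.57% of all promoters), and 2 of ARPP21 held the AP-1 letters TGANTCA (7.71% of all). None of the 14 held the STAT letters TTCNNNGAA (7.66% of all) or the MEF2 motif (0.572% of all). The 14 belong to ARPP21, MVP, COTL1 and MCUB, most of them to ARPP21. No promoter was found for GBP5, APOBEC3G, SLAMF7 or RASL10B, so these 4 genes were not searched. A match is a description of the letters in this window.
The following promoters are shown because their genes moved together or carry a match, with the matched letters in capitals: MCM6 and CDC6 with TTTGGCGC at chr2:135876394-135876693 (minus strand) and chr17:40287629-40287928 (plus strand), CCNB2 with TTTGAA at chr15:59104896-59105195 (plus strand), and MVP with the interferon-stimulated element at chr16:29820144-29820443 (plus strand).
MCM6: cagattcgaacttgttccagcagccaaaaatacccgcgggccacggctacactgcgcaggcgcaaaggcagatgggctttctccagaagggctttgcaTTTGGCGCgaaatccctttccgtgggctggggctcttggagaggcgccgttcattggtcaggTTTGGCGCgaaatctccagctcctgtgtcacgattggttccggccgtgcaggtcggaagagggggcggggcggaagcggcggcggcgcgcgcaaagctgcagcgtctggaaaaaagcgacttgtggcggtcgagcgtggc
CDC6: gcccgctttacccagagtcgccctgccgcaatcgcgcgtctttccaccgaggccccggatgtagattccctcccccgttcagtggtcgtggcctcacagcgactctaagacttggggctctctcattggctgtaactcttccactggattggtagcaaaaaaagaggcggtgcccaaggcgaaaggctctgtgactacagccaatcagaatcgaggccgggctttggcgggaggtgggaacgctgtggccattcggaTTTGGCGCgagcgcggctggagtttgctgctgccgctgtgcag
CCNB2: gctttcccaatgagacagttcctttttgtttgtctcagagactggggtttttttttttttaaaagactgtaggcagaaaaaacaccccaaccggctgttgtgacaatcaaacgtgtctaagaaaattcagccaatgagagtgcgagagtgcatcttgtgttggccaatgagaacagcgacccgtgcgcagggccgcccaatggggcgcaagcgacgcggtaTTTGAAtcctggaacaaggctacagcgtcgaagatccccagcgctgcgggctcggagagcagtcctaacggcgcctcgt
MVP: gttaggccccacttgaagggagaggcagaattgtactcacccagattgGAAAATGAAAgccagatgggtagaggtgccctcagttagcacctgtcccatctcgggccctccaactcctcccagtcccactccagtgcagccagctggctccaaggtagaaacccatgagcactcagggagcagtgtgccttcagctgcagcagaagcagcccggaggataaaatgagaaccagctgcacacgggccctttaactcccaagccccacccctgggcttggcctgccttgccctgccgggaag
MCM6, a subunit of the replicative helicase, had a difference of 1.13 ± 0.33 and was at 64.9, 105 and 107 CPM in iE9 with PMA and 107, 179 and 173 CPM in unstimulated iE9, against 97.4, 54.6 and 41.9 CPM in dE9 with PMA and 212, 197 and 254 CPM in unstimulated dE9. CDC6, which loads that helicase, had a difference of 1.95 ± 0.80, and CCNB2, a mitotic cyclin, one of 1.91 ± 0.72. None of these 3 passed the test over all genes with all pairs.

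The cytotoxic and natural killer list gave the most negative median. Of its 13 genes 7 were tested, 5 of these had a lower response in iE9 at an unadjusted p under 0.05, 0 passed at an adjusted p under 0.05 by edgeR, 3 by DESeq2 and 0 by limma voom, and the median difference was -2.71. Over all genes 7.65% were lower at that unadjusted p. The median level of the tested members, as log2(CPM + 1), was 0.85, 1.09 and 0.48 in unstimulated dE9. In unstimulated iE9 it was 3.72, 2.77 and 2.33. The median difference thus rests in part on genes near the floor in unstimulated dE9. Without dE9 pair 1, 3 of the 7 were called lower (2.12% of all genes) and the median difference was -2.15. GZMA, a granule protease, was at 284, 111 and 108 CPM in iE9 with PMA and 47.3, 11.6 and 10.7 CPM in unstimulated iE9, against 581, 106 and 100 CPM in dE9 with PMA and 17.3, 5.09 and 3.79 CPM in unstimulated dE9 (-1.70 ± 0.26, adjusted p = 0.0749). PRF1, which encodes perforin, was at 22.7, 5.55 and 7.68 CPM in iE9 with PMA and 9.58, 3.67 and 1.88 CPM in unstimulated iE9, against 16.5, 10.7 and 10.6 CPM in dE9 with PMA and 0.803, 1.12 and 0.226 CPM in unstimulated dE9 (-2.92 ± 0.59, adjusted p = 0.127, edgeR). For both genes the libraries with PMA overlapped. The unstimulated libraries did not overlap for PRF1 and did for GZMA. The summed level of the list, in CPM of total counts, was 151 to 364 CPM in iE9 with PMA and 31.4 to 113 CPM in unstimulated iE9, against 149 to 672 CPM in dE9 with PMA and 18.8 to 38.8 CPM in unstimulated dE9. With PMA most of this sum was GZMA alone in both lines, so it says little about the other genes of the list. TYROBP was at 0 in all 12 libraries and GNLY, KLRC1, KLRF1 and NCR1 stayed under 1 CPM, whereas all 13 T cell markers were detected.

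T cell surface molecules were mixed. On the list of co-receptors and surface molecules 23 of 25 genes were tested, SLAMF7 passed, and 9 were lower and 4 higher at an unadjusted p under 0.05, against 7.65% and 5.87% of all genes. Without dE9 pair 1, 6 were called lower (2.12% of all genes) and the median difference was 0.05, against -0.57 with all pairs. CD7, an early T cell antigen, was at 25.2, 16.4 and 17.5 CPM in iE9 with PMA and 56.4, 32.1 and 49.1 CPM in unstimulated iE9, against 24.1, 44.1 and 4.59 CPM in dE9 with PMA and 16.7, 26.3 and 4.63 CPM in unstimulated dE9. It fell in iE9 to 0.434 of its unstimulated level, and its difference did not pass (-1.66 ± 0.25, adjusted p = 0.0731). CD38, an ectoenzyme and activation marker, was at 79.0, 75.8 and 73.0 CPM in iE9 with PMA and 79.4, 57.4 and 58.3 CPM in unstimulated iE9, against 66.1, 40.6 and 33.6 CPM in dE9 with PMA and 23.2, 12.3 and 10.5 CPM in unstimulated dE9 (-1.40 ± 0.17, adjusted p = 0.0531). ICAM3, an adhesion molecule, was at 480, 291 and 299 CPM in iE9 with PMA and 295, 156 and 169 CPM in unstimulated iE9, against 324, 344 and 290 CPM in dE9 with PMA and 97.3, 103 and 78.4 CPM in unstimulated dE9 (-0.98 ± 0.13, adjusted p = 0.0603, all by edgeR). CD38 and ICAM3 were higher in every unstimulated iE9 library than in every unstimulated dE9 library. The costimulatory receptor CD28 had a difference of -1.13 ± 0.27 (adjusted p = 0.173), the early activation marker CD69 one of -0.68 ± 0.26 (adjusted p = 0.318), the interleukin 2 receptor chain IL2RA one of -0.90 ± 0.66 (adjusted p = 0.644), CD3E one of -0.41 ± 0.17 (adjusted p = 0.351) and CD5 one of 0.41 ± 0.21 (adjusted p = 0.43).

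On 9 lists of signalling and transcription with 150 tested genes, 0 genes passed with all pairs (edgeR). Without dE9 pair 1 the test called 6 higher and 5 lower, against 3.94% and 2.12% of all genes. Of the 150 genes, NOTCH1, a receptor that drives T cell fate, had the smallest p with a higher response. It was at 134, 79.0 and 75.8 CPM in iE9 with PMA and 97.6, 50.3 and 54.2 CPM in unstimulated iE9, against 66.4, 47.4 and 48.6 CPM in dE9 with PMA and 83.9, 85.2 and 85.0 CPM in unstimulated dE9 (1.20 ± 0.18, adjusted p = 0.0731 with all pairs and 0.00117 without dE9 pair 1). It rose in iE9 (adjusted p = 0.0116) and fell in dE9 (adjusted p = 0.00372, edgeR). NR4A1, an orphan nuclear receptor and a known target of HDAC7, was at 1.94, 1.85 and 4.09 CPM in iE9 with PMA and 4.79, 5.19 and 8.99 CPM in unstimulated iE9, against 11.7, 9.98 and 1.93 CPM in dE9 with PMA and 4.32, 4.58 and 4.46 CPM in unstimulated dE9. All 3 iE9 pairs were lower with PMA, the dE9 pairs were split, and the difference of -1.83 ± 0.67 did not pass (adjusted p = 0.304). RAG1, the recombinase of antigen receptor genes, was at 2.71, 1.91 and 1.88 CPM in iE9 with PMA and 244, 228 and 159 CPM in unstimulated iE9, against 7.70, 5.70 and 6.23 CPM in dE9 with PMA and 501, 314 and 157 CPM in unstimulated dE9 (-1.09 ± 0.36, adjusted p = 0.269). MYC, a transcription factor of growth, had a difference of 0.10 ± 0.39 (adjusted p = 0.934, edgeR).

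Counts at an unadjusted p under 0.05 place the other lists beside the background of 7.65% lower and 5.87% higher, where the median difference was -0.04. Of 17 tested antigen presentation genes 7 were lower and 0 higher, with a median of -0.51. HLA-C was at 4080, 1620 and 2190 CPM in iE9 with PMA and 1090, 416 and 657 CPM in unstimulated iE9, against 2440, 3840 and 1420 CPM in dE9 with PMA and 389, 554 and 255 CPM in unstimulated dE9 (-0.77 ± 0.14, adjusted p = 0.0988, edgeR), and reads can be split among HLA class I genes. Of 19 AP-1 and EGR factors 7 were lower and 2 higher (median -0.80), of 22 adhesion and migration genes 8 and 2 (-0.54), of 18 T cell receptor and proximal signalling genes 7 and 2 (-0.25), of 26 thymocyte transcription factors and rearrangement genes 7 and 0 (-0.10), of 13 T cell markers 5 and 1 (-0.35), of 17 NF-kB members and targets 4 and 0 (-0.32), and of 10 activation markers 3 and 0 (-0.79). Of 27 interferon response genes 6 were lower and 1 higher, with a median of -0.04, and GBP5 was the 1 that passed. Of 15 members of the HDAC family and co-repressors 4 were lower and 1 higher, of 11 genes of the MEF2 and NR4A axis 2 and 1, of 7 genes of 14-3-3 proteins 0 and 1, of 17 MAPK feedback regulators 2 and 2, of 21 genes of PKC and diacylglycerol signalling 1 and 5, of 14 NOTCH pathway genes 1 and 4, and of 8 cytokines and chemokines 0 and 1.

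In the lists of general cell functions, of 24 histone-modifying enzymes 0 were lower and 6 higher, of 29 splicing regulators 1 and 4, of 20 genes of cholesterol and fatty acid synthesis 0 and 2, of 17 p53 targets 2 and 1, of 17 apoptosis regulators 1 and 2, of 16 genes of the unfolded protein and integrated stress response 1 and 0, of 13 mitochondrially encoded genes 1 and 0, and of 9 replication-dependent histones 3 and 0. No gene reached it in either direction on the lists of 18 ribosome biogenesis genes, 19 glycolysis genes, and 11 cyclin-dependent kinase inhibitors and D cyclins. Markers of other cells gave 1 lower gene each for B cells (CD79B, of 3 tested) and for erythroid cells and megakaryocytes (HBA1, of 3), and none for myeloid (4 tested), epithelial (2) or fibroblast and endothelial cells (3). The summed level of B cell markers was 228 to 422 CPM in iE9 with PMA and 46.5 to 134 CPM in unstimulated iE9, against 13.9 to 161 CPM in dE9 with PMA and 9.0 to 26.4 CPM in unstimulated dE9, while MS4A1, PAX5, CD22 and BLNK stayed under 1 CPM in all 12 libraries. The part of these markers in the differences was not tested.

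**Figure D5:**
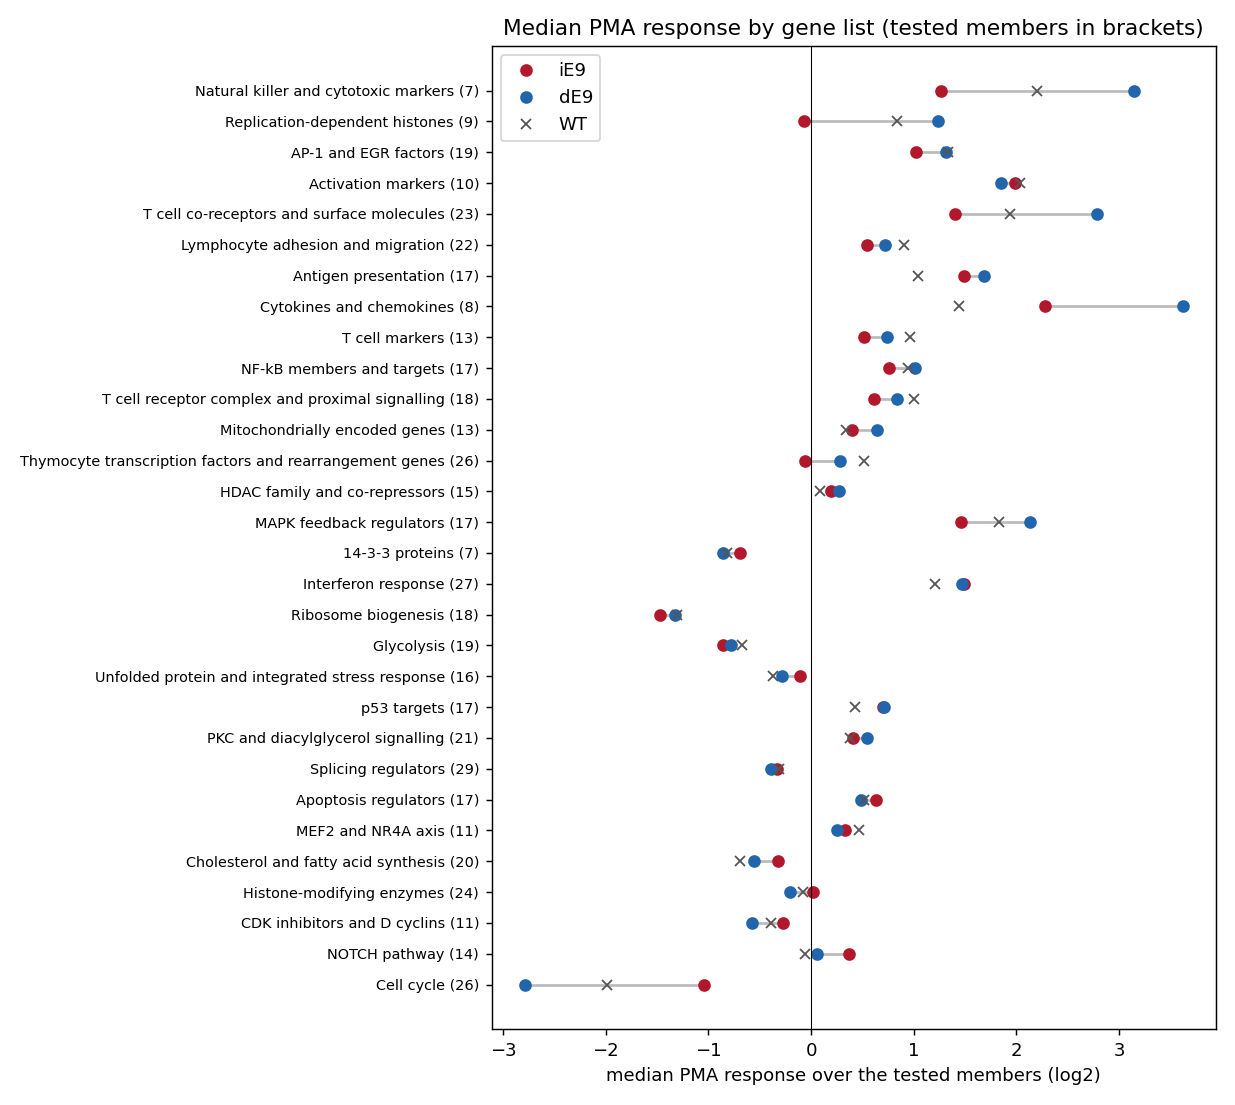
Median response to PMA over the tested members of each gene list with at least 5 of them, in log2 units, for iE9 (red), dE9 (blue) and WT (crosses), ordered from the most negative to the most positive median difference of iE9 minus dE9. The natural killer and cytotoxic list is at the top (median difference -2.71) and the cell cycle list at the foot (1.72), with WT between the lines in both.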

How the data were processed

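Polyadenylated RNA of 16 libraries of an established cell line was sequenced, and the submitters' processing notes name Salmon, DESeq2 and the hg38 build. Tool versions and strandedness are not stated in the labels. Per the file headers, the authors deposited for each transcript an estimated count (expected count of reads, which need not be whole), a TPM and an effective length. They also deposited a gene table of TPM, whose 16 columns of values each matched 1 library. Here the estimated counts were added up by gene and rounded to whole numbers. The 205870 transcripts matched GENCODE release 29 in 58295 genes, and gene sums of TPM equalled the authors' table. No 2 replicates agreed within sampling noise (lowest chi-square per degree of freedom 7.14), so no libraries were merged; this compares counting noise and cannot show separate cultures.

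The difference of responses was tested with edgeR 4.0.16 in R 4.3.3 (quasi-likelihood F test, two-sided, TMM factors, robust off) on 12 libraries, with 1 block per pair. filterByExpr kept 16915 of 32374 genes, the biological coefficient of variation was 22% and 4 residual degrees of freedom remained. Adjusted p is Benjamini-Hochberg over all genes tested. CPM is TMM-scaled, and pair values are log2 CPM with a prior count of 2. The pairing comes from the numbers in the library titles, taken within a line. As a check, same-numbered libraries deviated together from their group means in all 6 pairs, with correlations from 0.22 to 0.49, each above 0.1. Libraries 2 and 3 of iE9 also correlated across numbers (0.11 and 0.17), so the check separates those pairs less well. Genes risen or fallen in WT were chosen in a fit of all 16 libraries with no block. WT was called nearer to a line by mean pair values.

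The members, the gene lists and the tests were chosen with earlier results of these data known. Genes were named by a rule: up to 10 called genes per direction with pairs that did not overlap and at least 5 CPM in the highest group, filled to 5 by smallest p, the genes with the highest level, a set always named (HDAC7, CD69, CD28, IL2RA, RAG1, MYC, CD3E, CD5 and NR4A1), and leading members of each list. Other members of 3 gene families and cell cycle genes were added after their values were seen. Alternatives were another normalization, no filter, DESeq2 1.42.0, limma 3.58.1 voom, a length offset, other blocks, mitochondrial genes left out and each pair left out. The statistical steps were also run on counts simulated from the fitted model. The pairs were built into that simulation, so it cannot show whether same-numbered libraries are true pairs. Without stated molecular identifiers, low counts carry more than counting error.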

Additional observations from a re-analysis of the deposited data

Results flagged for a closer look

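Each of the 8 called genes is listed because its response to PMA differed between iE9 and dE9 by a test of the difference itself (edgeR quasi-likelihood, adjusted p from 0.0259 to 0.0489, 3 pairs per line). The difference, as the iE9 response minus the dE9 response on the log2 scale, was -2.88 for GBP5, -3.09 for APOBEC3G, -3.23 for SLAMF7, -1.96 for MVP, -1.62 for COTL1, -1.53 for ARPP21, 2.17 for RASL10B and 1.19 for MCUB. For all 8 the 3 iE9 pairs did not overlap the 3 dE9 pairs, which held for 20.6% of all genes tested. The rule for naming genes required this, and the test used the same pairs, so it adds no separate support.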

How the results depend on the processing

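The counts of called genes moved widely, and are given as higher and lower in iE9 beside 2 and 6. With no replicate block they were 0 and 0, with 12 or with all 16 libraries (556 and 683 at an unadjusted p under 0.05 with 16). They were 18 and 43 with all 16 libraries and the replicate block, 2 and 7 with RLE size factors, 395 and 299 with no filter on low counts, 229 and 211 with DESeq2, 5 and 16 with limma voom, 0 and 1 with a transcript length offset, and 2 and 13 without mitochondrially encoded genes. Without 1 pair they ran from 0 to 686 higher and from 0 to 369 lower, the largest without dE9 pair 1, and were 1 and 6 without dE9 pair 2 and 15 and 54 without dE9 pair 3. Chosen after seeing the data, leaving out the pairs numbered 1 of both lines gave 464 and 150, and an adjusted p under 0.1 gave 29 and 63. The cause was not tested; of 694 calls with no filter, 689 were among the genes of the filtered table, and DESeq2 gave no adjusted p for 2952 genes. The 8 genes kept their direction throughout. All 8 passed with all 16 libraries and the replicate block, RLE, no filter, DESeq2 and without mitochondrial genes, 7 with voom, 3 without dE9 pair 2, and 0 with the length offset (adjusted p from 0.0504 to 0.0921), with no replicate block (0.423 to 0.917 with 12 libraries) and without any 1 iE9 pair (0.205 to 0.296). Since 0 genes passed with no replicate block, only the calls of these 8 could change with the pairing. The change in exon 9 share ran from -20.04 to 0.86 points without 1 pair and was -7.5 with protein-coding transcripts and -8.1 with estimated counts. The median differences kept their sign in every setting run, from -0.38 to -0.21 for genes risen in WT and from 0.09 to 0.31 for genes fallen. MYC ran from -0.32 to 0.36 without 1 pair, reversing without iE9 pair 2 (-0.08) and dE9 pair 3, and PECAM1 from -0.31 to 0.58, reversing without dE9 pair 3 and, at -0.06, with no replicate block. The nearness of WT could not be given for calls with no replicate block, since there were 0. With 4 residual degrees of freedom, differences of genes at a few counts are little resolved.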

Other observations

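Some genes kept a level particular to a pair in both states. In dE9 pair 1, CD5, a surface receptor that dampens T cell receptor signals, was at 3.5 CPM with PMA and 1.98 CPM unstimulated, against 137 and 84.1 CPM in dE9 pair 2 and 90.5 and 51.8 CPM in dE9 pair 3. Its response was nonetheless alike, at 0.79, 0.70 and 0.81 log2 units. LTB, a cytokine of the tumour necrosis factor family, was at 32.2 CPM with PMA and 22.9 CPM unstimulated in dE9 pair 2, against 1.43 and 0.803 CPM in dE9 pair 1 and 0.397 and 0.17 CPM in dE9 pair 3. These genes were always named or led their list, and their pair levels were picked out after the values were seen.

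Among genes at an adjusted p under 0.1, picked out after their values were seen, KRT1, a keratin of skin, was at 41.2, 79.7 and 198 CPM in iE9 with PMA and 13.3, 13.8 and 24.0 CPM in unstimulated iE9. It was at 544, 387 and 491 CPM in dE9 with PMA and 16.7, 9.68 and 6.50 CPM in unstimulated dE9, and at 575 and 557 CPM in WT with PMA and 5.85 and 7.10 CPM in unstimulated WT (difference -3.09 ± 0.42, adjusted p = 0.0603, edgeR). PPM1H, a protein phosphatase, was at 0.581, 1.36 and 2.54 CPM in iE9 with PMA and 4.03, 4.92 and 2.16 CPM in unstimulated iE9, against 43.7 to 148 CPM in dE9 with PMA and at most 45.2 CPM in unstimulated dE9 (difference -3.26 ± 0.57, adjusted p = 0.0976, edgeR). STAG3, a meiotic cohesin subunit, was at 136, 66.3 and 56.3 CPM in iE9 with PMA and 17.5, 10.4 and 12.3 CPM in unstimulated iE9, against 19.3, 28.6 and 25.2 CPM in dE9 with PMA and 12.0, 10.5 and 13.7 CPM in unstimulated dE9 (difference 1.61 ± 0.27, adjusted p = 0.087, edgeR). For KRT1 and STAG3 the unstimulated libraries overlapped and the libraries with PMA did not overlap, while PPM1H was lower in iE9 in both states.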
